A study of Strongylocentrotus purpuratus with 191 samples.

Results

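Gastrulae of Strongylocentrotus purpuratus, the purple sea urchin, that had developed at 15C were compared with gastrulae of the same parents that had developed at 12C. The members are the cultures that the labels place in block 4 at these temperatures, 63 of the 191 cultures of the series: 31 at 15C and 32 at 12C. Block 4 crossed each of 4 females (dams A4, B4, C4 and D4) with each of 4 males (sires A4, B4, C4 and D4), which gave 16 crosses. A dam and a sire of the same name are different animals. Each cross was grown in 2 cultures at each temperature, except dam C4 with sire D4, which has 1 culture at 15C because the array of the other was marked as of poor quality and is in no labelled sample. The labels give no treatment other than temperature and no mutant allele, and all cultures were collected at the gastrula stage. The sampling time ran from 27.65 to 28.58 at 15C and from 37.17 to 38.12 at 12C, with no unit given. The sampling times of the temperatures did not overlap, so temperature and sampling time cannot be told apart. The question, per the series title, is how parents shape the response of the gene network to temperature stress. The same parents' 32 cultures at 18C and the 64 cultures of block 3 at 15C and 12C, from other parents on another plate, serve only for comparison.

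RNA of whole embryos was read with an Illumina DASL panel designed for the study, an assay in which short oligonucleotides anneal next to each other on the cDNA of a chosen transcript, are joined, and are then amplified and read on beads. The panel covers the gene regulatory network of the early embryo. At gastrulation the vegetal plate folds inward to form the gut, skeletogenic mesenchyme cells lay down the larval skeleton, and the ectoderm is divided into an oral and an aboral side. Wnt signalling through beta-catenin sets up endoderm and mesoderm. Nodal and BMP ligands pattern the ectoderm, and Delta and Notch separate mesodermal fates.

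The deposited normalized table holds 336 probes for 74 genes (2 to 6 each) on a log2 scale that is centred on 0 for each probe. A gene's value is the mean of its probes, and the values of replicate cultures were averaged, so that each cross gave 1 value at 15C and 1 at 12C. A change below is the value at 15C minus the value at 12C, in log2 units, with its SE over 16 crosses. Crosses share dams and sires, so the 16 changes are not fully independent. Because values are centred, a level can be compared between cultures and not between genes. For each of the 9 genes called, the change on the deposited values, which were not array-centred, was larger than on the array-centred non-normalized values. The gap was small for Dkk (0.67 against 0.66) and wider for Ets1 (0.12 against 0.06). With both array-centred the order varied by gene: 0.61 against 0.66 for Dkk, 0.057 against 0.057 for Ets1 and 0.10 against 0.09 for SM30-E.

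The comparison turned on Dkk, which encodes a secreted antagonist of canonical Wnt signalling, and brn1-2-4, which encodes a POU-domain transcription factor of the embryonic gut. Their probe sequences are given here, as the deposited table prints them, because single probes of both genes gave different changes. The exon is the one in the probe's name. No genome of the build used for the design was at hand, so no coordinates are given. The first 2 sequences are the Dkk probes of the normalized table.

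Dkk probe 5846, exon 2: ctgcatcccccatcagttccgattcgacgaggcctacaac
Dkk probe 3440, exon 3: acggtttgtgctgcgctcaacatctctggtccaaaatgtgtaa

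A further 3 Dkk probes appear only in the non-normalized table.

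Dkk probe 5091, exon 1: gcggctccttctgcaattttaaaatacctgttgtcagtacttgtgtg
Dkk probe 1790, exon 2: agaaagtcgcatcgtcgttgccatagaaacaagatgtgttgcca
Dkk probe 119, exon 2: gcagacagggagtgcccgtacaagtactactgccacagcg

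All 6 probes of brn1-2-4 carry exon 1 in their names, and all are in the normalized table.

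brn1-2-4 probe 3704: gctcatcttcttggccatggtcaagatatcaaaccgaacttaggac
brn1-2-4 probe 718: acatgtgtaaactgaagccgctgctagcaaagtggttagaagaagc
brn1-2-4 probe 1876: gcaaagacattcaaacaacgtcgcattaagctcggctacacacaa
brn1-2-4 probe 2091: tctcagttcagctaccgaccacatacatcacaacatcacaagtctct
brn1-2-4 probe 2794: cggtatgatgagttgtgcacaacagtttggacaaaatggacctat
brn1-2-4 probe 4099: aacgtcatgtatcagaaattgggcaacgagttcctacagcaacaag

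Array signal was alike at the temperatures compared. Before normalization the median panel signal was 12.2 at 15C and 12.2 at 12C (difference -0.01 log2, exact sign-flip permutation test over 16 crosses, two-sided p = 0.726). A probe was taken as detected on an array where under 0.05 of the 27 negative controls reached its value, and 83.6% of probe values were detected at 15C and 83.3% at 12C. Markers of the embryo's territories were well above the negative controls. The gut gene Endo16 lay 4.43 log2 units above them at 15C and 4.45 at 12C, the skeletogenic surface protein gene Msp130 4.97 and 4.94 units, the pigment cell regulator gcm 3.45 and 3.39 units, and the oral ectoderm gene Chordin 4.61 and 4.58 units. The probes of Alx1, a defining regulator of skeletogenic cells, lay at -0.15 units at 15C and -0.09 at 12C, so this marker was not detected. No array repeated the values of another, the closest arrays correlating at 0.905. The median SD between replicate cultures was 0.20 log2 units over genes. Nothing in the labels says whether replicate cultures were separate fertilizations.

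Of 74 genes, 9 were higher at 15C and 0 were lower, so 12.2% of the genes tested were called (limma on cross means with the cross as a block, Benjamini-Hochberg adjusted p under 0.05). At an unadjusted p under 0.05 there were 22 genes (29.7%), 21 of them higher (28.4%). Dkk and brn1-2-4 stood first by size among the 9. The others were the skeletogenic transcription factor gene Ets1, the bHLH-leucine zipper gene Mitf, the receptor gene notch, the homeobox genes Tgif, Lhx2 and Otp, and the spicule matrix gene SM30-E. RNA came from whole embryos, so more cells of a type and more RNA per cell cannot be told apart for any of them. With only 1 replicate culture of each cross in the fit, 0 genes passed without replicate 1 (limma, 10 at an unadjusted p under 0.05, 15 crosses) and 4 without replicate 2, and in each of these fits all 9 genes kept a change above 0. Over 26 fits that left out 1 cross, 1 parent or 1 replicate, Dkk and brn1-2-4 passed in 25, Mitf in 23, Ets1 in 22, notch, Tgif and Lhx2 in 12 each, Otp in 8 and SM30-E in 4.

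Dkk was higher at 15C in all 16 crosses. Over cultures its lowest, median and highest values were -0.44, 0.26 and 1.16 at 15C, against -2.32, -0.31 and 0.73 at 12C. The groups overlapped, but 29 of the 31 cultures at 15C lay above the median at 12C. Over crosses Dkk averaged 0.27 ± 0.21 at 15C, against -0.40 ± 0.43 at 12C (SD over n = 16 crosses), a change of 0.67 ± 0.11 (95% interval 0.43 to 0.91, limma adjusted p = 0.000539). The value rests on 2 dim probes, which were above background in 13 and 20 of 31 cultures at 15C and in 4 and 10 of 32 at 12C. Single crosses changed by 0.02 to 1.56. Of these temperatures 12C had the wider spread: cross values ran from -0.17 to 0.69 at 15C and from -1.31 to 0.22 at 12C. At 18C the SD over crosses was 0.40, close to that at 12C, so a wide spread was not particular to the cold. The change was 0.51 with adjusted p = 0.282 without replicate 1, and 0.80 with adjusted p = 0.0226 without replicate 2 (limma).

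brn1-2-4 acts in the gut of this embryo, where its product is known to drive the midgut gene Endo16. Its lowest, median and highest culture values were -0.56, 0.15 and 0.45 at 15C, against -0.70, -0.24 and 0.21 at 12C. Of the 31 cultures at 15C, 27 lay above the median at 12C and 10 lay above every culture at 12C. Over crosses it averaged 0.07 ± 0.23 at 15C, against -0.23 ± 0.19 at 12C (SD over n = 16 crosses), a change of 0.30 ± 0.05 (95% interval 0.20 to 0.40, limma adjusted p = 0.000356, higher in 15 of 16 crosses). The exception was dam A4 with sire A4, at -0.08. Without replicate 1 the change was 0.29 with adjusted p = 0.0907, and without replicate 2 it was 0.32 with adjusted p = 0.0226 (limma).

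**Figure D1:**
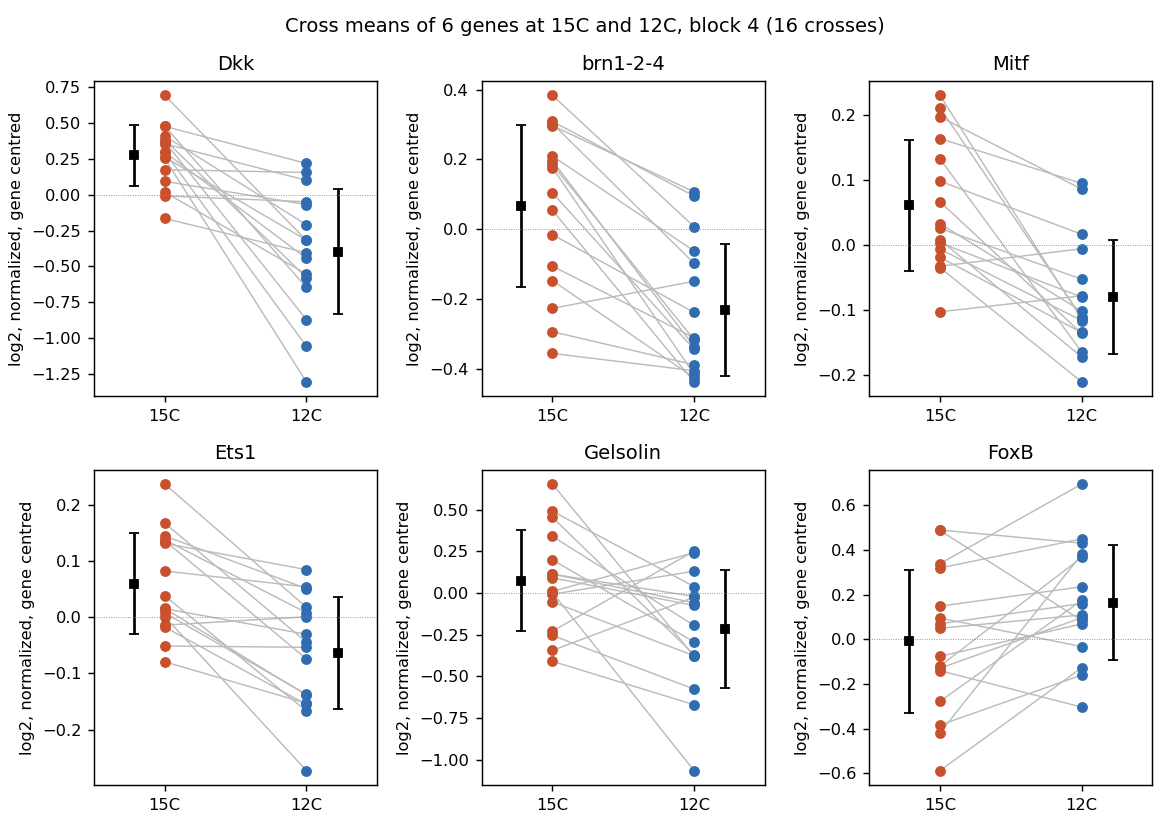
Values of 6 genes (y axis, log2, normalized, gene centred) in the 16 crosses at 15C (left, orange) and 12C (right, blue), with a line for each cross and the mean and SD as a black square and bar. Dkk is higher at 15C in 16 of 16 crosses and brn1-2-4 in 15 of 16, Gelsolin in 12 of 16, and FoxB is lower in 12 of 16.

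The transcription factor genes Mitf, Ets1 and Tgif had smaller changes, each with an SE of 0.03. Mitf, whose vertebrate counterpart is a regulator of pigment cells, had low, median and high culture values of -0.20, 0.07 and 0.31 at 15C against -0.40, -0.08 and 0.16 at 12C, and 28 of 31 cultures at 15C lay above the median at 12C. Its change was 0.14 ± 0.03 (limma adjusted p = 0.00344, higher in 14 of 16 crosses), and its 5 probes, all detected in every culture, moved by 0.12 to 0.16. Ets1, which activates skeletogenic genes, had culture values of -0.21, 0.03 and 0.37 at 15C against -0.30, -0.08 and 0.15 at 12C. Its change was 0.12 ± 0.03 (limma adjusted p = 0.00344, higher in 15 of 16 crosses). Only 1 of the 5 Ets1 probes was detected in most cultures at both temperatures, and that probe changed by 0.10 ± 0.05, while the 3 probes detected in no culture changed by 0.11 to 0.17. Tgif, a TALE homeobox gene, changed by 0.11 ± 0.03 (limma adjusted p = 0.031, 15 of 16 crosses). Its 5 probes were detected in all cultures and ranged from -0.05 to 0.26.

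Of the remaining genes, 3 were read by dim probes. Otp, a homeobox gene of ectodermal cells, changed by 0.09 ± 0.03 (limma adjusted p = 0.0342, 13 of 16 crosses), with culture values of -0.08, 0.05 and 0.51 at 15C against -0.17, -0.04 and 0.37 at 12C. Its mean signal was below that of the negative controls, at -0.17 log2 units at 15C and -0.21 at 12C. The Delta receptor gene notch changed by 0.13 ± 0.04 (limma adjusted p = 0.031, 13 of 16 crosses) and lay 0.47 units above the controls at 15C and 0.42 at 12C. The LIM homeobox gene Lhx2 changed by 0.26 ± 0.07 (limma adjusted p = 0.0314, 14 of 16 crosses) and lay 1.20 units above them at 15C and 0.97 at 12C. For all 3, no probe of the normalized table met the detection rule in over 50% of cultures at 15C and also at 12C. A Lhx2 probe outside that table, 6107, did so (77.4% at 15C and 62.5% at 12C), and changed by 0.14 ± 0.08 on array-centred non-normalized values. SM30-E, which encodes a protein of the larval spicule, changed by 0.16 ± 0.05 (limma adjusted p = 0.0485, 13 of 16 crosses). Its largest probe change, 0.35 ± 0.08, was on a probe detected in 19.4% of cultures at 15C and 6.25% at 12C, and its 2 probes detected in every culture changed by 0.10 ± 0.05 and 0.20 ± 0.14. When only probes of the normalized table that were detected in most cultures at both temperatures were used, 67 genes had a value and 2 passed, brn1-2-4 and Mitf. Dkk has no such probe in that table. Its 2 probes that meet the rule, 5091 and 1790, are only in the non-normalized table, where they changed by 0.13 ± 0.08 and 0.27 ± 0.17 with arrays centred.

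The whole panel was somewhat higher at 15C on the normalized scale. Of 74 genes, 67 (90.5%) had a change above 0, with a median of 0.05. The median change over genes averaged 0.06 ± 0.09 per cross (SD, n = 16) and was above 0 in 11 of 16 crosses (exact sign-flip permutation test, two-sided p = 0.0151, adjusted over 2 tests 0.0303). In the non-normalized table without scaling the same mean was -0.0024 (exact permutation p = 0.943). On the deposited values the shift lost the threshold without dam D4 (0.0457, exact permutation p = 0.131), without sire D4 (0.0516, p = 0.0728) and without replicate 2 (0.072, p = 0.093). Whether the shift came from normalization was not tested.

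Relative to the rest of the panel, Dkk and brn1-2-4 were still higher at 15C, and FoxB was lower. With each array centred on its panel median, 3 genes passed, 4.05% of the 74, with 2 higher (2.7%) and 1 lower (1.35%). At an unadjusted p under 0.05 there were 7 genes (9.46%), and 31 genes (41.9%) had a change above 0. Dkk then changed by 0.61 ± 0.10 (limma adjusted p = 0.00124, 16 of 16 crosses) and brn1-2-4 by 0.23 ± 0.04 (limma adjusted p = 0.00149, 14 of 16 crosses). FoxB, which encodes a forkhead factor, fell by 0.24 ± 0.06 (limma adjusted p = 0.0388, lower in 14 of 16 crosses). Mitf came to 0.08 ± 0.02 (limma adjusted p = 0.126), and the other 6 genes called on the deposited values had adjusted p from 0.288 to 0.749. When 1 cross, dam or sire at a time was left out of the fit on centred arrays, Dkk and brn1-2-4 passed each time. FoxB passed in 6 of the 16 fits without a cross, 1 of the 4 without a dam and 0 of the 4 without a sire (limma), with changes from -0.27 to -0.18. In the non-normalized table, centred or quantile normalized, Dkk and brn1-2-4 were the genes called. With only 1 replicate of each cross, 0 genes passed on centred arrays (limma, 7 at an unadjusted p under 0.05 without replicate 1 and 4 without replicate 2).

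On the deposited values FoxB missed the threshold. Its lowest, median and highest culture values were -0.91, -0.0037 and 0.78 at 15C, against -0.49, 0.14 and 0.78 at 12C, and the groups overlapped throughout. The change was -0.17 ± 0.07 (limma adjusted p = 0.108). All 6 FoxB probes had a change below 0, from -0.04 to -0.36. The replicates differed: the change was -0.33 without replicate 1 and -0.0056 without replicate 2, with limma adjusted p of 0.155 and 0.989.

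**Figure D2:**
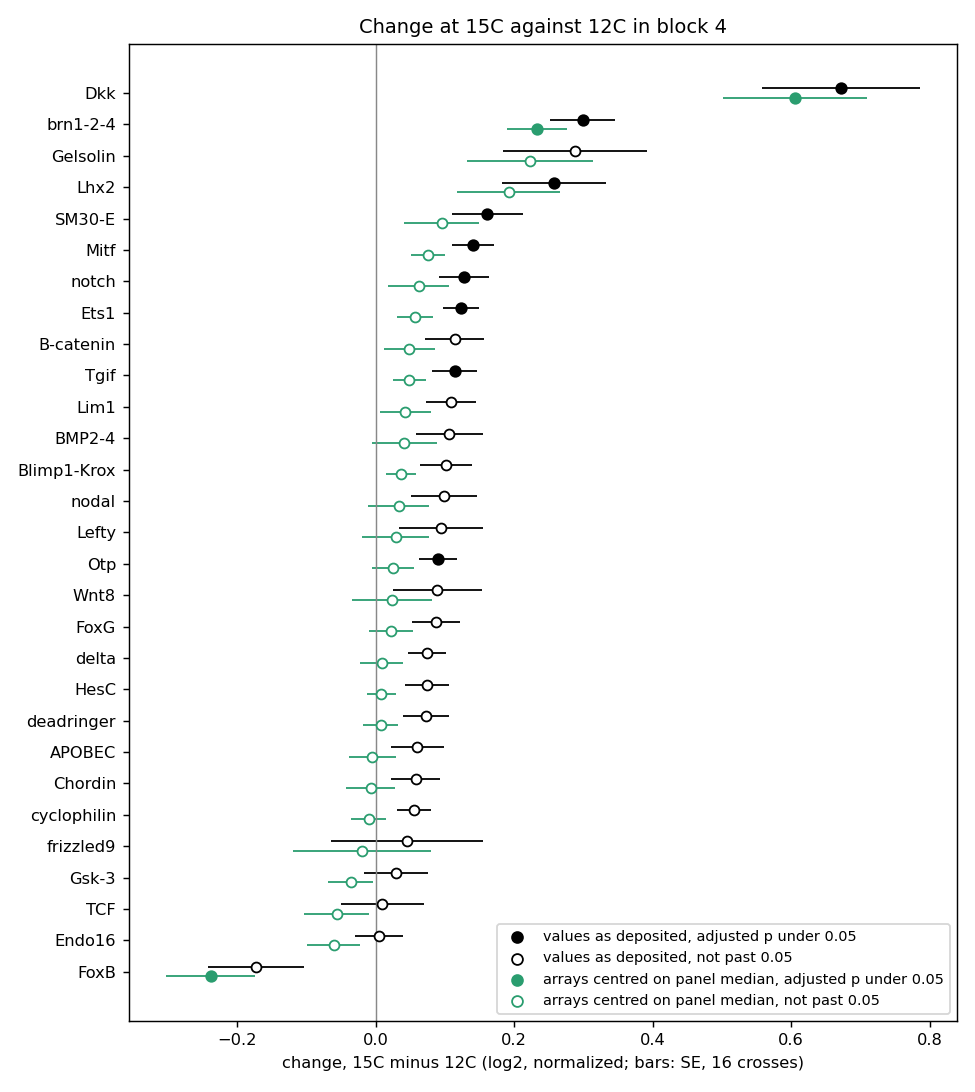
Change at 15C minus 12C (x axis, log2, normalized, bars SE over 16 crosses) of the 29 genes named by rule, on the values as deposited (black) and with each array centred on its panel median (green), filled where the adjusted p was under 0.05. Filled black points are 9, all to the right of 0, and filled green points are 3: Dkk at 0.61, brn1-2-4 at 0.23 and FoxB at -0.24.

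The counts by gene group stand beside those over all 74 genes, of which 12.2% passed, 90.5% had a change above 0 and 28.4% were higher at an unadjusted p under 0.05. Dkk was the 1 of 6 Wnt signalling genes that passed, and all 6 had a change above 0. The ligand gene Wnt8 had a change of 0.09 ± 0.06, the effector gene B-catenin 0.11 ± 0.04, the receptor gene frizzled9 0.05 ± 0.11, the kinase gene Gsk-3, whose product marks beta-catenin for destruction, 0.03 ± 0.05, and the transcription factor gene TCF 0.0097 ± 0.06. Their limma adjusted p ran from 0.0818 for B-catenin to 0.951 for TCF. The median of the 6 was 0.07, against 0.05 over all genes. A Wnt8 probe outside the normalized table, detected in 96.8% of cultures at 15C and 100% at 12C, changed by -0.16 ± 0.10 on array-centred non-normalized values.

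In the endoderm, brn1-2-4 was the 1 of 8 specification genes that passed (12.2% over all genes). All 8 had a change above 0 (90.5% over all genes) and 4 had an unadjusted p under 0.05 (28.4%). Blimp1-Krox, a zinc finger repressor of the endomesoderm, had 0.10 ± 0.04 (limma adjusted p = 0.0818), and the homeobox gene Eve, of the posterior endoderm, had 0.16 ± 0.07 (limma adjusted p = 0.147). Among gut differentiation genes, Gelsolin, which encodes an actin-severing protein, had 0.29 ± 0.10. Its culture values were -0.41, 0.00094 and 1.11 at 15C against -1.71, -0.21 and 0.69 at 12C, and it missed the threshold (limma adjusted p = 0.0818, higher in 12 of 16 crosses). A bright Gelsolin probe outside the normalized table, detected in every culture, changed by -0.02 ± 0.05 on array-centred non-normalized values. Endo16, the target gene of the Brn1-2-4 protein, had 0.0053 ± 0.04 (limma adjusted p = 0.951), with a median culture value of 0.03 at 15C and 0.0014 at 12C. APOBEC, a cytidine deaminase family gene of the gut, had 0.06 ± 0.04 (limma adjusted p = 0.286).

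Skeletogenic genes gave 3 of the 9 calls, from 26 genes, a share close to the 12.2% over all genes. Of 14 regulators, Ets1 and Tgif rose, 10 had a change above 0 (90.5% over all genes), and the median was 0.04, against 0.05 over all genes. FoxB, also in this list, had its lowest change, -0.17, and was the 1 gene called lower on centred arrays. Deadringer, an ARID-domain regulator, had 0.07 ± 0.03 and HesC, a repressor that is silenced in the skeletogenic lineage, 0.07 ± 0.03, neither past the threshold (limma adjusted p = 0.147 and 0.142). Of 12 effectors, SM30-E rose, all 12 had a change above 0, and the median was 0.04. Cyclophilin, a peptidyl-prolyl isomerase gene of skeletogenic cells, had 0.06 ± 0.02 (limma adjusted p = 0.146). With arrays centred, which lowers the changes of all genes alike, 2 of the 12 effectors had a change above 0 and their median was -0.03, against 41.9% and -0.01 over all genes.

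In the ectoderm, none of 9 oral genes and none of 3 aboral genes passed in limma (12.2% over all genes), with 3 and 0 of them at an unadjusted p under 0.05 (28.4% over all genes). The ligand genes nodal and BMP2-4 had changes of 0.10 ± 0.05 and 0.11 ± 0.05, the Nodal antagonist gene Lefty 0.09 ± 0.06 and the BMP antagonist gene Chordin 0.06 ± 0.04. Limma adjusted p ran from 0.147 for BMP2-4 to 0.287 for Lefty. The oral transcription factor genes Lim1 and FoxG had 0.11 ± 0.04 and 0.09 ± 0.03 (limma adjusted p = 0.0575 and 0.106). In 3 further groups 1 gene passed, which for groups this small says little beside the 12.2% over all genes. Otp was the 1 of 4 ciliary band and neural genes and notch the 1 of 4 Delta-Notch genes, of which the ligand gene delta had 0.07 ± 0.03 (limma adjusted p = 0.0818, higher in 13 of 16 crosses). Mitf was the 1 of 4 pigment and non-skeletogenic mesoderm genes. Neither VEGF-3 nor its receptor gene VEGFR-10-Ig passed, at 0.02 ± 0.09 and -0.0063 ± 0.04.

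The probes of Dkk did not move alike. On array-centred non-normalized values, probe 5846 in exon 2 changed by 0.74 ± 0.12 (higher in 15 of 16 crosses) and probe 3440 in exon 3 by 0.57 ± 0.15 (14 of 16 crosses). These are the 2 probes behind the deposited Dkk value, and both were dim. Probe 5846 was detected in 13 of 31 cultures at 15C and 4 of 32 at 12C, and probe 3440 in 20 of 31 and 10 of 32. Of the 3 probes absent from the normalized table, probe 5091 in exon 1 was the brightest, detected in all cultures of both groups, and changed by 0.13 ± 0.08 (10 of 16 crosses). Probe 1790 in exon 2 was detected in 27 of 31 cultures at 15C and 24 of 32 at 12C and changed by 0.27 ± 0.17 (10 of 16 crosses), and probe 119, also in exon 2, changed by 0.10 ± 0.21 (6 of 16 crosses). With all 5 probes averaged, an alternative chosen after seeing the data, Dkk changed by 0.36 (limma adjusted p = 0.0036). That mean still holds the 2 dim probes behind the deposited value, and a mean of the other 3 was not tested. The reason for leaving probes out of the normalized table is not given in the sources used here.

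All 6 probes of brn1-2-4 had a mean change above 0, but not equally over crosses, and 1 of them stood apart. Probe 3704 changed by 0.73 ± 0.16 on the normalized scale (higher in 15 of 16 crosses), and the other 5 by 0.14 to 0.30. Probes 718 and 4099 each changed by 0.23 ± 0.08 (12 of 16 crosses). Probe 1876 changed by 0.14 ± 0.10 (11 of 16), probe 2794 by 0.30 ± 0.17 (10 of 16) and probe 2091 by 0.16 ± 0.10 (7 of 16). Probe 3704 was detected in 83.9% of cultures at 15C and 59.4% at 12C. With the median of the probes the change of brn1-2-4 was 0.23 (limma adjusted p = 0.0014). With the brightest probe alone it was 0.23 (limma adjusted p = 0.0609), which missed the threshold.

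**Figure D3:**
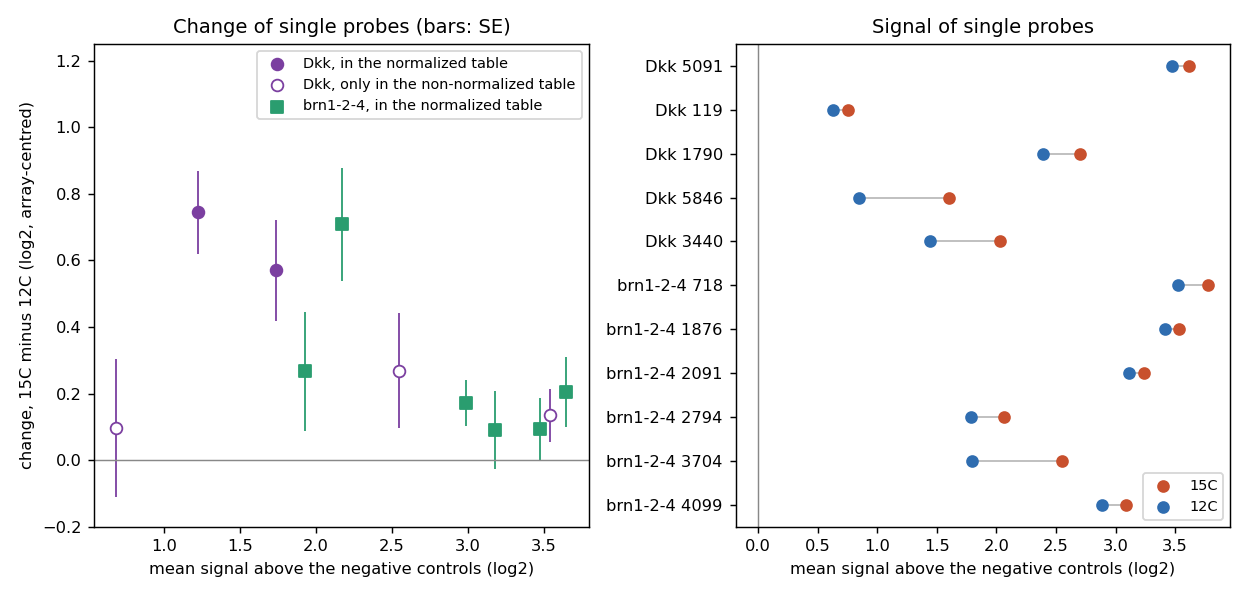
Left, change at 15C minus 12C of each probe of Dkk (circles) and brn1-2-4 (squares) on array-centred non-normalized values (y axis, log2, bars SE over 16 crosses) against its mean signal above the negative controls (x axis, log2), with open circles for Dkk probes absent from the normalized table. Right, the signal of the same probes above the negative controls at 15C (orange) and 12C (blue); the Dkk probes with the widest gaps, 5846 and 3440, lie at 1.60 and 2.03 at 15C and at 0.85 and 1.44 at 12C.

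The mean Dkk change varied among sires and dams, but on the deposited values neither test passed (limma adjusted p = 0.0628 for sires and 0.393 for dams). This change rests on 2 dim probes, detected in 4 and 10 of 32 cultures at 12C. By sire, it averaged 1.01 ± 0.33 for C4, 1.01 ± 0.56 for D4, 0.42 ± 0.32 for A4 and 0.25 ± 0.23 for B4 (SD, n = 4 crosses each). At 15C the sires' means lay between 0.16 and 0.36. At 12C they were -0.65 for C4 and -0.73 for D4, against -0.12 for A4 and -0.09 for B4. By dam, the change averaged 0.97 ± 0.47 for D4, 0.88 ± 0.55 for A4, 0.56 ± 0.50 for C4 and 0.28 ± 0.22 for B4 (SD, n = 4 crosses each). The largest change, 1.56, was in dam D4 with sire D4, whose value was 0.25 at 15C and -1.31 at 12C, and the smallest, 0.02, in dam C4 with sire B4.

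The difference between sires was at the edge of the threshold. On the deposited values, 0 of 74 genes passed for sires and 0 for dams (0.00% each, moderated F test in limma, with 1 gene, 1.35%, and 4 genes, 5.41%, at an unadjusted p under 0.05). Dkk had the smallest p in the sire test (adjusted p = 0.0628, unadjusted 0.000849) and in the dam test (adjusted p = 0.393, unadjusted 0.00531). With arrays centred, Dkk was the 1 gene called in each, with limma adjusted p of 0.00523 for sires and 0.0422 for dams. With detected probes only, Dkk had no value in either test. With 1 replicate of each cross the sire p of Dkk was 0.0604 without replicate 1 and 0.423 without replicate 2, both unadjusted in limma, so this pattern rested on the means of both replicates. brn1-2-4 changed by 0.19 to 0.35 over sires and by 0.23 to 0.43 over dams (limma adjusted p = 0.992 and 0.99). Every dam and every sire had a mean change above 0 for both genes.

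**Figure D4:**
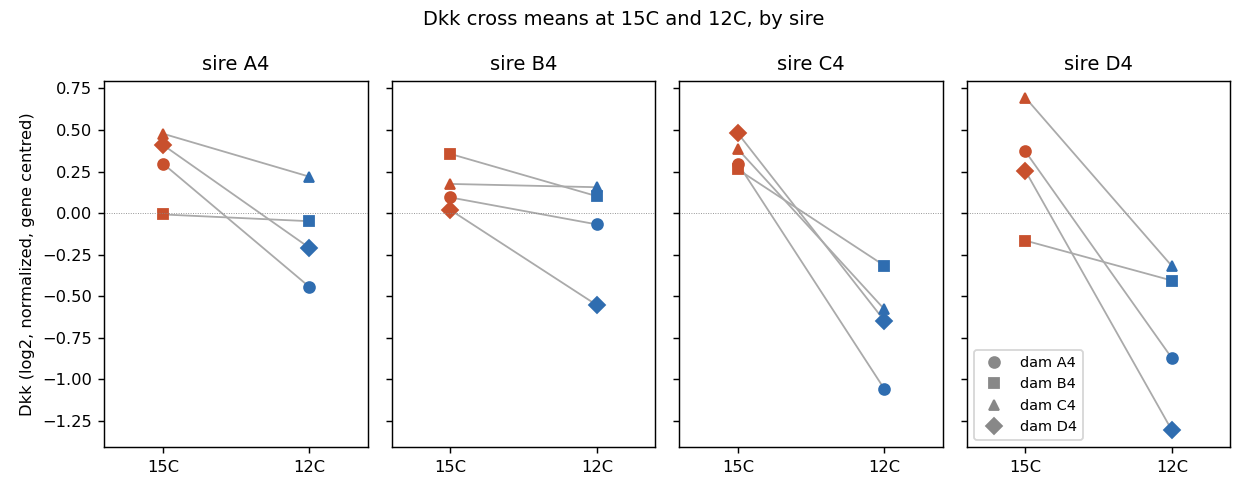
Dkk values of the 16 crosses (y axis, log2, normalized, gene centred) at 15C (left in each panel, orange) and 12C (right, blue), a panel for each sire and a symbol for each dam. Sires C4 and D4 have mean changes of 1.01 each, with means of -0.65 and -0.73 at 12C; sires A4 and B4 have mean changes of 0.42 and 0.25.

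In block 3, whose 16 crosses came from other parents, 14 of 74 genes (18.9%) had a change above 0 and 3 passed (4.05%, limma, with 13 genes or 17.6% at an unadjusted p under 0.05): FoxB, cyclophilin and gataC, all lower at 15C. The difference of the changes, block 4 minus block 3, passed for 9 of 74 genes (12.2%, and 33.8% at an unadjusted p under 0.05), all with the higher change in block 4. For Dkk the change was 0.67 ± 0.11 in block 4, against -0.07 ± 0.09 in block 3, a difference of 0.74 ± 0.15 (limma adjusted p = 0.00136). For brn1-2-4 the change was 0.30 ± 0.05 in block 4, against 0.05 ± 0.06 in block 3, a difference of 0.25 ± 0.08 (limma adjusted p = 0.0304). Ets1, Mitf, notch, Lhx2 and Otp passed too, with block 4 changes above 0 and block 3 changes between -0.05 and -0.11. The other 2 were cyclophilin, at 0.06 ± 0.02 in block 4 and -0.13 ± 0.04 in block 3, and gataC, a zinc finger regulator gene of non-skeletogenic mesoderm, at 0.06 ± 0.06 and -0.17 ± 0.05. The last gene was named after its values were seen.

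With each array centred, all 9 differences were smaller but stayed above 0, and Dkk was the 1 gene past the threshold. It differed between blocks by 0.63 ± 0.13 (1 of 74 genes, 1.35%, limma adjusted p = 0.00275, 8 genes or 10.8% at an unadjusted p under 0.05). For Lhx2 the difference was 0.26 ± 0.10, for brn1-2-4 0.14 ± 0.06 and for Ets1 0.09 ± 0.03, with limma adjusted p of 0.278, 0.404 and 0.205. FoxB had deposited changes of -0.17 ± 0.07 in block 4 and -0.16 ± 0.05 in block 3 (limma adjusted p = 0.108 and 0.0395), and the difference was -0.01 (95% interval -0.18 to 0.16). On the deposited values without replicate 1, the difference passed for cyclophilin alone (limma), and it was 0.49 for Dkk and 0.14 for brn1-2-4, both with adjusted p = 0.472. Without replicate 2 it passed for 6 genes (limma) and was 0.96 for Dkk (adjusted p = 0.00706) and 0.37 for brn1-2-4 (adjusted p = 0.0582). Block and plate cannot be told apart.

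**Figure D5:**
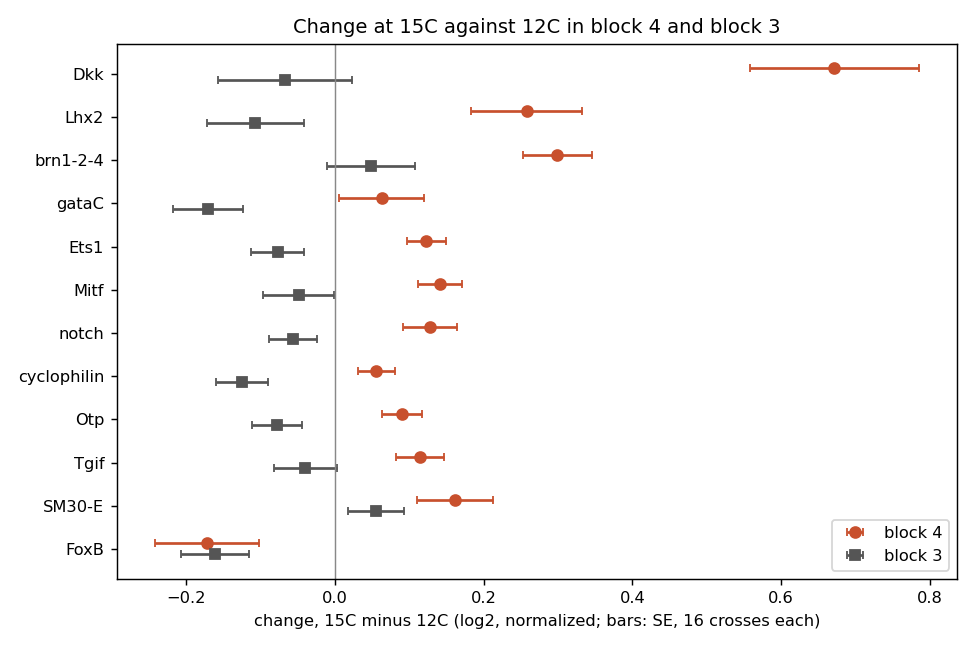
Change at 15C minus 12C (x axis, log2, normalized, bars SE over 16 crosses each) in block 4 (circles) and block 3 (squares), for the 12 genes called in block 4 on deposited or centred values or called for a difference between blocks. Dkk is at 0.67 in block 4 and -0.07 in block 3, and FoxB is at -0.17 and -0.16.

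The embryos at 18C, from the same parents, allow the order over temperature to be described. They share the 12C cultures with the comparison above, so the values are set side by side only. The mean of Dkk over 16 crosses was -0.40 ± 0.43 at 12C, then 0.27 ± 0.21 at 15C, then 0.14 ± 0.40 at 18C (SD). The mean of brn1-2-4 was -0.23 ± 0.19 at 12C, then 0.07 ± 0.23 at 15C, then 0.15 ± 0.29 at 18C. For both genes the values at 15C and 18C lay within 1 SD of each other. For FoxB it was 0.16 ± 0.26 at 12C, then -0.0085 ± 0.32 at 15C, then -0.16 ± 0.25 at 18C. Otp and notch were highest at 15C, with -0.02, 0.07 and -0.06 for Otp and -0.03, 0.09 and -0.05 for notch from 12C to 18C.

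Culture stage and plate position were set beside temperature, and their part in the results was not tested beyond the values here. The culture stage score, whose scale the labels do not give, was 0.370 ± 0.104 at 15C, against 0.334 ± 0.0495 at 12C (SD over n = 16 crosses). The difference of 0.0355 was above 0 in 10 of 16 crosses (exact sign-flip permutation test, two-sided p = 0.0661, adjusted over 2 tests 0.0661). It was 0.0964 for dam D4 and 0.0639 for dam B4, each in 4 of 4 crosses, 0.0105 for dam A4 and -0.0289 for dam C4. With the score as a covariate 4 genes passed, and Dkk changed by 0.65, brn1-2-4 by 0.27 and Mitf by 0.12, with limma adjusted p of 0.0047, 0.0047 and 0.0308.

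On the plate, cultures at 15C lay in rows D, F, G and H and those at 12C in rows A, B and C. No row held both, so row and temperature cannot be told apart. Dkk averaged 0.34, 0.22 and 0.29 in rows F, G and H at 15C, against -0.58, -0.19 and -0.43 in rows A, B and C at 12C. The 1 culture in row D at 15C had a Dkk value of -0.34, within the range of the 12C rows and also of row F at 15C, and a brn1-2-4 value of 0.42, above every culture at 12C. Of the 32 cultures at 18C, 23 lay in rows D and E, 5 in rows F to H and 4 in row C. At 18C Dkk averaged 0.12 ± 0.53 in rows D and E, 0.19 ± 0.42 in rows F to H and 0.22 ± 0.33 in row C (SD). brn1-2-4 averaged 0.18 ± 0.29, 0.31 ± 0.33 and -0.19 ± 0.23 in the same rows. At 18C the mean of brn1-2-4 was thus below 0 in row C and above 0 in rows D to H, while the means of Dkk lay close together. Row C also held 12C cultures. The rows held different crosses, the row means were not adjusted for cross, and the difference between rows was not tested.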

How the data were processed

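The authors deposited normalized values on a log2 scale, centred on 0 for each probe, and non-normalized values of 384 probes of 77 genes with 27 negative controls, which were read as log2 from their range. The submitters' processing notes name BeadStudio, and the normalization method is not given in the sources used here. The series matrix repeats the normalized values exactly. The files also hold 1 column of an array noted as poor, which belongs to no labelled sample and stayed out. Gene names are those of the files, and 28 of 74 matched a symbol or synonym of the RefSeq gene table.

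Gene values were the means of probes, averaged over replicate cultures. Changes were tested with limma 3.58.1 in R 4.3.3 on cross means with the cross as a block (15 residual df), and the difference between blocks on 30 residual df. Dams and sires were tested with a moderated F test on the 16 changes (3 df, and 9 residual df before moderation). Benjamini-Hochberg adjustment ran over 74 genes, and 0.05 was the threshold. Single values were tested with all 65536 sign patterns of the 16 crosses. For arrays, the number of cultures limits the precision. On data simulated for 74 genes, the comparison of 15C with 12C called 55% of changes of 0.15 and 92.5% of changes of 0.3, and the sire test 29.2% of genes in which 1 sire was shifted by 0.3 and 64.2% of those shifted by 0.6. Figures were drawn with matplotlib 3.10.9 in python 3.11.15.

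Genes were named if called on deposited or centred values, then by smallest p until 20 were named, with all Wnt, Nodal and BMP, and gut genes added. The members, the 12 gene lists and the tests were chosen with earlier results of these data known. Alternatives in scaling, probe summary, detection, replicates, crosses, parents, stage and plate position are given in the closing section.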

Additional observations from a re-analysis of the deposited data

Results flagged for a closer look

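The test of the difference between blocks drew attention to 9 genes, whose change from 12C to 15C was higher in block 4 than in block 3. The difference was 0.74 for Dkk, 0.37 for Lhx2, 0.25 for brn1-2-4, 0.23 for gataC, 0.20 for Ets1, 0.19 for Mitf, 0.18 for notch, 0.18 for cyclophilin and 0.17 for Otp (log2, normalized). With arrays centred, Dkk was the 1 of 74 genes past the threshold.

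Some probes and genes lie outside the normalized table but had signal above the negative controls at 15C in the non-normalized table. Of the named genes, these probes lay above the controls by 3.61 and 2.70 log2 units for Dkk (exons 1 and 2), 5.27 for Gelsolin, 4.40 for B-catenin, 4.31 for BMP2-4, 4.54, 3.73 and 4.95 for HesC, 2.21 and 2.07 for Lhx2 and 2.94 for Lim1. On array-centred non-normalized values most of these probes changed less than their gene did as deposited, without centring, or the other way. The changes were 0.13 ± 0.08 and 0.27 ± 0.17 for Dkk, -0.02 ± 0.05 for Gelsolin, 0.11 ± 0.08 for B-catenin, -0.10 ± 0.11 for BMP2-4, -0.0022, -0.12 and 0.0078 for HesC, 0.41 ± 0.20 and 0.14 ± 0.08 for Lhx2 and -0.22 ± 0.22 for Lim1. The HesC probe at -0.12 ± 0.04 was higher at 15C in 2 of 16 crosses. The genes Hmx, Kakapo and RBM8A are only in the non-normalized table, with 4.51, 3.84 and 5.35 log2 units above the controls. Their array-centred changes at 15C against 12C were 0.0065 ± 0.04, -0.08 ± 0.05 and -0.07 ± 0.04, with limma adjusted p of 0.99, 0.483 and 0.499.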

How the results depend on the processing

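The count of 9 genes depended on most choices. It was 3 with each array centred on its panel median, and 2 in the non-normalized table with arrays centred, with quantile normalization, or with all its probes. It was 14 with the brightest probe of a gene (4 of them among the 9) and 2 with detected probes only. It was 5 without the cross as a block, 5 with the 18C cultures in the fit and 4 with the stage score as a covariate. It was 19 with plate row as a random block over single cultures, a fit that does not average replicates. The correlation within rows in that fit was -0.02. No row held both temperatures, so the fit cannot separate row from temperature. Leaving out 1 cross at a time gave 4 to 10 genes, 1 dam 5 to 6, 1 sire 2 to 6 and 1 replicate 0 to 4, so the lowest was 0 and the highest 10. The crosses whose absence left 4 or 5 genes were, dam first, A4 by A4, B4 by B4, C4 by C4, C4 by D4, D4 by A4 and D4 by D4. On centred arrays the count of 3 became 1 with detected probes only, and 0 to 3 when a replicate, cross or parent was left out. Dkk passed in 39 of 40 alternatives and brn1-2-4 in 39 of 41, Mitf in 34 and Ets1 in 31. No called gene changed sign. The fit on detected probes gives no Dkk value and is not among the 40. For each gene, 26 alternatives are fits that left out 1 cross, parent or replicate and so share most of their cultures or crosses.

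The panel median change of 0.06 was 0.0094 in the centred non-normalized table (exact permutation p = 0.456), -0.0011 after quantile normalization and -0.0024 without scaling, and ranged from 0.0457 to 0.0798 over crosses, parents and replicates left out. The stage difference ranged from 0.0152 to 0.0569, and was 0.0569 without dam C4 (exact permutation p = 0.0171). The block difference count of 9 became 1 on centred arrays, for Dkk, and 1 to 6 with 1 replicate. With detected probes it was also 1, but for cyclophilin (limma adjusted p = 0.00569), and Dkk had no value there. The dam and sire counts of 0 became 1 on centred arrays and were 0 with 1 replicate. The cause was not tested for any of these.

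The replicate numbers did not pair cultures: the 15 correlations of same-numbered deviations had a median of -0.03 and 4 were over 0.1. With a replicate block over 31 pairs, 6 genes passed, and 3 on centred arrays. Dim probes limit Dkk, Otp, notch and Lhx2, which have no value in the fit on detected probes. They also limit Ets1 and SM30-E, which missed the threshold in that fit (limma adjusted p = 0.225 and 0.277). Tgif, whose probes were all detected, kept its change of 0.11 there but also missed the threshold (limma adjusted p = 0.0557).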
